A study of Mus musculus with 4 samples.

Results

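The genes described here are 54 ligands, receptors and modulators of Wnt signalling, measured in the ventral midbrain of mice without REV-ERBα (RKO) and of wild-type mice (WT). They were taken from a list of gene symbols, and each gene was read through the probe set annotated to that symbol alone, or through the brightest such probe set on average. The array held such a probe set for 53 of the 54, out of 19938 genes in all. Tcf7 was not analysed here for lack of one. Expression was profiled on 2 RKO arrays and 2 WT arrays, which the labels call biological replicates. RKO mice are knock-outs of Rev-erba, the gene also called Nr1d1, and WT mice carry it. All mice were males of 10 to 15 weeks on a C57BL/6J background, entrained for over 10 days to 12 h of light a day and then kept in darkness for 2 days. The clock hour of collection, the number of mice behind an array and the part of the gene that was deleted are not given in the sources used here.

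REV-ERBα is a nuclear receptor that represses transcription and belongs to the circadian clock. Wnt ligands are secreted lipid-modified proteins that bind Frizzled receptors together with the co-receptors Lrp5 and Lrp6. In the canonical branch this stops the Axin and Apc complex from marking β-catenin for destruction, and β-catenin then activates genes through Tcf and Lef factors, among them inhibitors of the pathway such as Axin2 and Nkd1. In the embryo, Wnt1 and Wnt5a take part in forming the dopamine neurons of the ventral midbrain. In the adult brain the pathway is known for roles in vessels, synapses and glia.

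Values are the authors' normalized probe-set intensities on a linear scale, and differences are given on the log2 scale as RKO minus WT. Nr1d1, the gene knocked out, had intensities of 1259 and 1229.7 in RKO and 2897 and 3099 in WT (log2 difference -1.27, SE 0.0641, adjusted p = 0.00385 in a limma fit without an intensity filter). Its adjusted p was 0.272 in the same fit without RKO replicate 1 and 0.294 without RKO replicate 2. The tissue carried the defining markers of midbrain dopamine neurons, all 9 of which passed the intensity filter. RKO replicate 1 was the lowest of the 4 arrays for 5921 of 13587 tested genes. It was the lowest for 18 of the 48 tested Wnt genes, where WT replicate 1 was the lowest for 17. The 2 RKO arrays had the highest correlation of any pair over all probe sets (r = 0.9956). Genes are described as changed where limma's Benjamini-Hochberg adjusted p over all 13587 tested genes was under 0.05, which 1.60% of them reached. With 2 arrays against 2, an exact permutation test cannot go below p = 0.333 for any gene. Precision is limited throughout by the few arrays. The labels do not tie the arrays to animals, so the p-values measure the spread between these arrays only.

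Of the 53 Wnt genes, 48 had a mean intensity above the filter, the 40th percentile of all probe sets or an intensity of 167, and were tested. A gene could pass through the higher of its groups, so these 48 do not stand for all members. Wnt1, Wnt2, Wnt6, Dkk2 and Rspo2 lay below the filter. The nearest members were Wnt2b at a mean of 176 just above it, and Wnt6 at 165 and Wnt2 at 162 just below. Fewer cells of a type and less RNA per cell cannot be told apart in such tissue samples.

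Among the 48 tested genes Nkd1, an intracellular inhibitor of the pathway, fell in RKO, 0 rose and 47 did not pass. Over all tested genes 0.964% were called lower and 0.640% higher. The median difference of the 48 genes was -0.01, beside -0.01 for all tested genes, with 24 genes above 0 and 24 below. Their differences ran from -0.30 (Nkd1) to 0.17 (Lgr5). The 95% interval of the difference lay within 1.5-fold in either direction for all 48 tested genes, as it did for 99.5% of all tested genes, and within 1.3-fold for 46, all but Nkd1 and Wnt3, against a background of 96.6%. An unadjusted p under 0.05 was reached by 10 genes, of which 3 were higher and 7 lower in RKO. The background at that p was 12.8% of all tested genes, 5.90% higher and 6.90% lower. The groups did not overlap for 21 of the 48, with the RKO arrays both above or both below the WT arrays, which is 43.8% where all tested genes gave 41.8%. Among these 21, 8 were higher and 13 lower in RKO, and over all tested genes the shares were 17.2% and 24.6%. The median size of a difference between the groups was 0.06, while the RKO replicates differed by a median of 0.09 and the WT replicates by a median of 0.07. Over all tested genes these medians were 0.052, 0.062 and 0.056. Means of 2 arrays vary less than single arrays, so the first size does not compare directly with the other sizes. Without RKO replicate 1, without RKO replicate 2 or without WT replicate 1, limma called 0 of the Wnt genes, with 6, 9 and 6 at an unadjusted p under 0.05. Without WT replicate 2 it called Wnt3 alone. In each of these fits a group is left with 1 array, which is assumed to vary like the other group, so a call made or lost there says little about a gene.

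**Figure D1:**
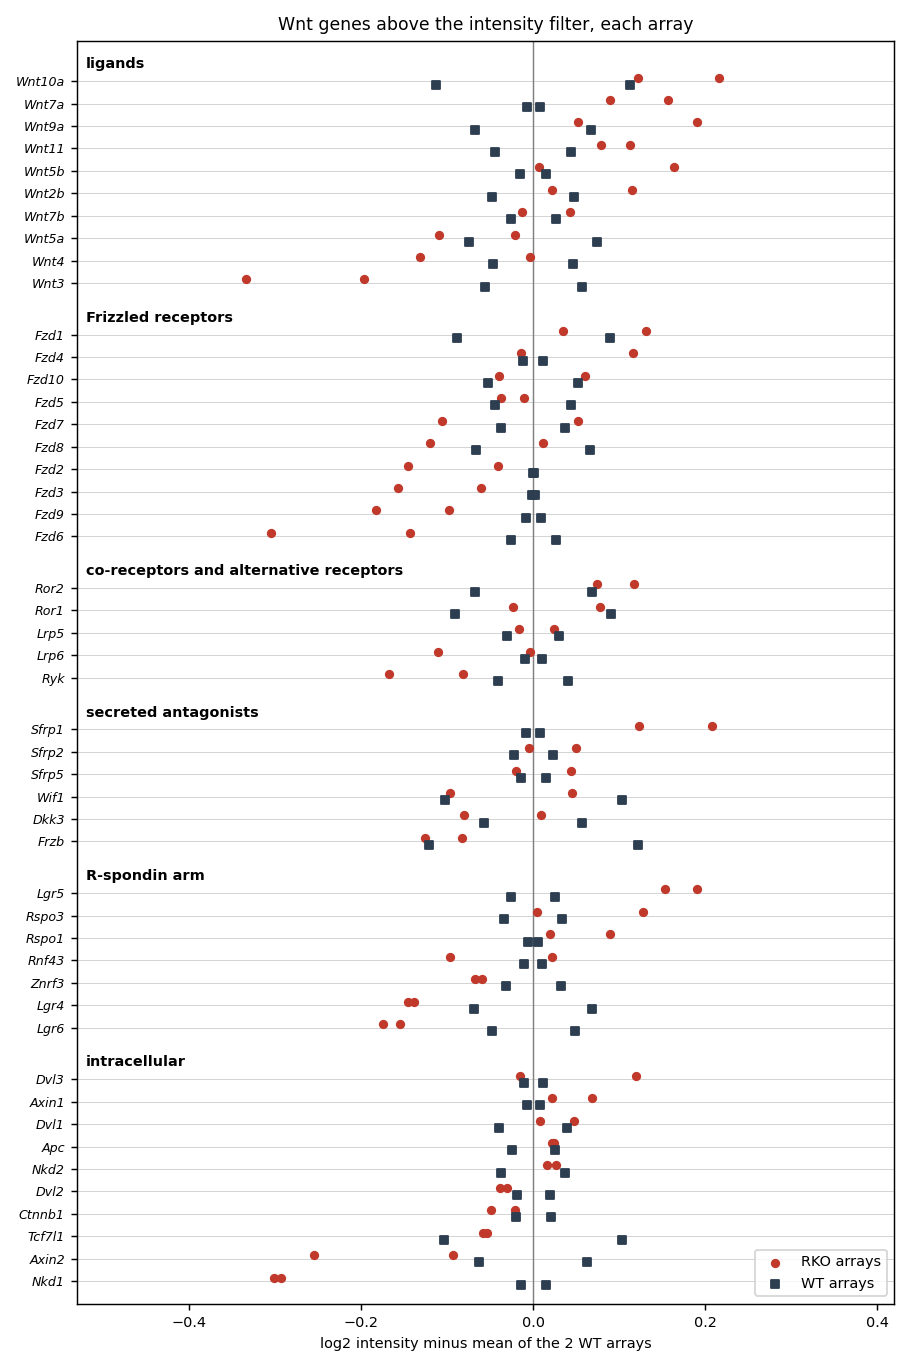
Log2 intensity of the 48 tested Wnt genes in each array minus the mean of the 2 WT arrays, by role, with RKO arrays as circles and WT arrays as squares. The groups lay apart for 21 genes (43.8%, against 41.8% of all tested genes). Both RKO arrays of Nkd1 lay about 0.30 below the WT mean, while most other genes overlapped or lay close together.

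**Figure D2:**
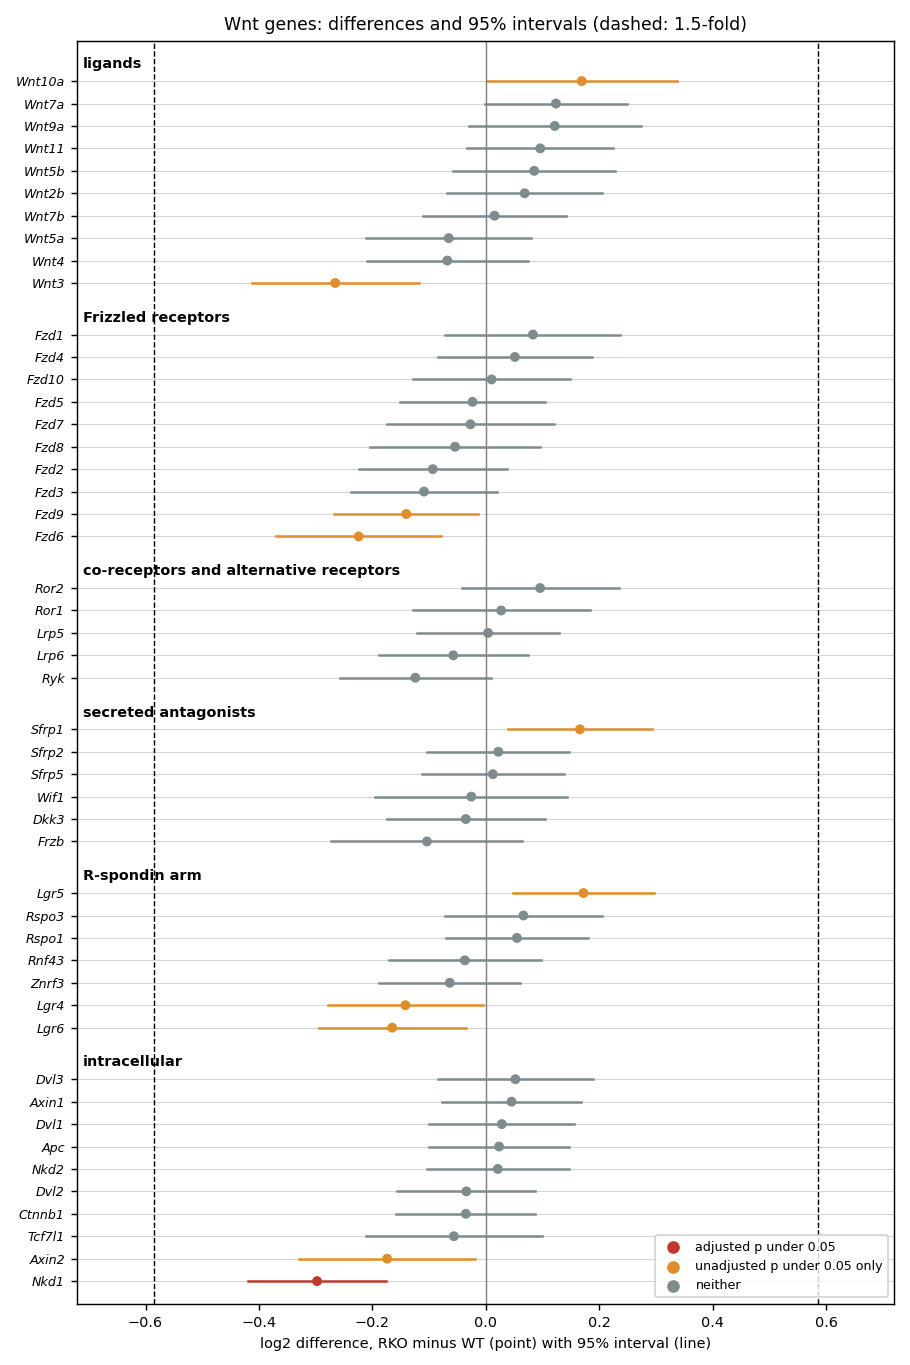
Log2 difference of the 48 tested Wnt genes, RKO minus WT, with its 95% interval from limma, by role. Nkd1 alone passed at an adjusted p under 0.05, and every interval lay inside the dashed lines at 1.5-fold.

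The sequence before the transcription start is shown for Nkd1, Wnt3 and Axin2, which had the lowest differences among the members found in the RefSeq promoter table of GRCm38.p6. That table matched 36 of the 53 members. The 250 bases before each start are printed 5′ to 3′, from chr8:88527383-88527632 for Nkd1, chr11:103773925-103774174 for Wnt3 and chr11:108920099-108920348 for Axin2, all on the plus strand. Capitals mark CTTTG, the core of the site bound by Tcf and Lef factors.
Nkd1: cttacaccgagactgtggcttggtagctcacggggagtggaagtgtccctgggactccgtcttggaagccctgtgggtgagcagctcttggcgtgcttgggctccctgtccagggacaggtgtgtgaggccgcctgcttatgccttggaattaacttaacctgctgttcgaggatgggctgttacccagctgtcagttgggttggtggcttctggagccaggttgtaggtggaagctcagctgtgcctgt
Wnt3: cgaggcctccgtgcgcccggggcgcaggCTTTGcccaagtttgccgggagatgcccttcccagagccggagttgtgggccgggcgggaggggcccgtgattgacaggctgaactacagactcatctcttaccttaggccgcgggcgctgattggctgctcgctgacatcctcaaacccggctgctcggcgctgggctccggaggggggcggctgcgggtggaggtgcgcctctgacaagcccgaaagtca
Axin2: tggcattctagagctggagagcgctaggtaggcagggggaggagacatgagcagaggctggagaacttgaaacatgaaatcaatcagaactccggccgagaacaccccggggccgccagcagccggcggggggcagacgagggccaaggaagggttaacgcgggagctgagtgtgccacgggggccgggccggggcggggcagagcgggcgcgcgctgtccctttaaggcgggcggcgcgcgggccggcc
Both strands were searched for CTTTG, for the longer Tcf and Lef motif CTTTGAT that contains it, for AGGTCA, the motif core bound by REV-ERB and ROR receptors, and for the E-box CACGTG bound by CLOCK and BMAL1. The Wnt3 window held CTTTG at 1 place, starting at position -222 counted from the start, and the Nkd1 and Axin2 windows held none of the 4 motifs. Some genes have several starts, so the 36 members gave 41 windows. AGGTCA was in 0 of the 41 member windows and in 14.0% of all 32851 windows, and CACGTG was in 4 member windows (9.76%) and in 6.02% of all. CTTTGAT was in 2 member windows (4.88%) against 3.21% of all, and CTTTG in 15 (36.6%) against 48.6%. These are matches of letters in short windows and say nothing of binding.

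Of the 13 Wnt ligands 10 were tested and 0 passed, 2 of them with an unadjusted p under 0.05. Wnt3, which signals mainly through β-catenin, had the lowest difference of the tested ligands. Its intensities were 243 and 267 in RKO, against 319 and 295 in WT. Both RKO arrays lay below both WT arrays, and the difference was -0.27 (SE 0.0666, adjusted p = 0.0866). It was the gene nearest to the threshold after Nkd1. Wnt10a, also a canonical ligand, stood on the other side of 0, with intensities of 331 and 309.6 in RKO and 263 and 308 in WT. The RKO arrays were the higher ones, but the lower RKO array and the higher WT array nearly met (difference 0.17, SE 0.0760, adjusted p = 0.385). Without WT replicate 1 the difference was 0.06. Wnt7b, which with Wnt7a guides vessel growth and barrier formation in the brain, had 319 and 332 in RKO and 328 and 316 in WT. Its arrays interleaved, and its difference of 0.02 was the smallest of the ligands. Wnt7a stood at 0.12 with both RKO arrays above both WT arrays (311 and 326 in RKO, 294 and 291 in WT), at an adjusted p of 0.396. The remaining tested ligands were Wnt9a (0.12), Wnt11 (0.10), Wnt5b (0.09), Wnt2b (0.07), Wnt5a (-0.07) and Wnt4 (-0.07), with adjusted p from 0.519 to 0.781. Wnt5a and Wnt11 act largely through β-catenin-independent branches. For Wnt4 a further, dimmer probe set gave -0.04, on the same side of 0.

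Wnt1, Wnt2 and Wnt6 were too dim for the test and are given as intensities alone. Wnt1, the organiser signal of the embryonic midbrain and hindbrain boundary, had 86.3 and 88.2 in RKO and 75.7 and 83.7 in WT. Wnt2 had 160.3 and 183 in RKO and 155 and 149.9 in WT. Wnt6 had 161 and 180.3 in RKO and 151 and 169 in WT. The RKO arrays were the higher ones for Wnt1 and Wnt2, while those of Wnt6 overlapped.

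All 10 Frizzled receptors, the membrane receptors of Wnt ligands, passed the filter and 0 passed the test. Fzd6, best known for planar polarity, had 431 and 482 in RKO and 542 and 523 in WT. Both RKO arrays lay below both WT arrays, although the RKO arrays differed more from each other than the WT arrays did (difference -0.22, SE 0.0657, adjusted p = 0.152). Its difference was -0.14 without RKO replicate 1, which carries the lowest value. Fzd9 had 311 and 329 in RKO and 350.3 and 355 in WT, also with no overlap (difference -0.14, SE 0.0576, adjusted p = 0.328). Fzd10 had 292 and 273 in RKO and 271 and 291 in WT, so its groups covered the same range, and its difference was 0.01. The remaining receptors lay between Fzd3 at -0.11 and Fzd1 at 0.08. Fzd3, a receptor needed for axon guidance, and Fzd2 at -0.09 were lower in both RKO arrays than in both WT arrays. Fzd4, the receptor of norrin and Wnt ligands on brain endothelium, stood at 0.05 with overlapping arrays. Fzd5 (-0.02), Fzd7 (-0.03) and Fzd8 (-0.05) overlapped as well. Of the 10 receptors 7 lay below 0, beside 7715 of all 13587 tested genes, and the median of the receptors was -0.04.

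The co-receptors and alternative receptors were all tested, and 0 of the 5 passed or reached an unadjusted p under 0.05. Ryk, a kinase-related receptor without kinase activity, had 696 and 739 in RKO and 804 and 759.7 in WT (difference -0.12, SE 0.0602, adjusted p = 0.430). Both its RKO arrays were below both WT arrays. Ror2, a receptor tyrosine kinase for Wnt5a, had 269 and 261 in RKO and 237 and 260.5 in WT (difference 0.10, adjusted p = 0.597). Its groups were separated by 1 intensity unit. Lrp5, a co-receptor of the canonical branch, had 364 and 354 in RKO and 350.3 and 365 in WT, and its difference of 0.0038 had a 95% interval from -0.12 to 0.13. Its relative Lrp6 stood at -0.06 and Ror1 at 0.03, with overlapping arrays for each.

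Of the 7 secreted antagonists 6 were tested and 0 passed. Sfrp1, a soluble Frizzled-related protein that binds Wnt ligands, had the highest difference of these 6. Its intensities were 326 and 346 in RKO and 298 and 301 in WT, with both RKO arrays above both WT arrays (difference 0.17, SE 0.0576, adjusted p = 0.240). The related Frzb had 208 and 202 in RKO and 240.1 and 203 in WT. Its difference of -0.10 (SE 0.0762, adjusted p = 0.650) rested on WT replicate 1 and was 0.02 without that array. Sfrp5 had 436 and 455 in RKO and 437 and 446 in WT, and its groups overlapped (difference 0.01). Sfrp2 (0.02), the Wnt-binding Wif1 (-0.03) and Dkk3 (-0.04), a divergent member of the Dickkopf family, overlapped too. Dkk2, whose family binds Lrp5 and Lrp6, was below the filter at 168 and 136 in RKO and 153 and 150.4 in WT.

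The R-spondin arm holds secreted R-spondins, their receptors Lgr4, Lgr5 and Lgr6, and the membrane ubiquitin ligases Znrf3 and Rnf43, which remove Frizzled receptors until R-spondins block them. Of its 8 genes 7 were tested and 0 passed. The 3 receptors had an unadjusted p under 0.05 in limma, as had 12.8% of all tested genes. These 3 did not lie on the same side of 0. Lgr5 had 745 and 764 in RKO and 681 and 658 in WT (difference 0.17, SE 0.0562, adjusted p = 0.207). Lgr4 had 690.1 and 687 in RKO and 797 and 724 in WT (difference -0.14, SE 0.0621, adjusted p = 0.368). Lgr6 had 247 and 244 in RKO and 266 and 284 in WT (difference -0.17, SE 0.0585, adjusted p = 0.252). In each of the 3 the RKO arrays lay close together and apart from both WT arrays. They were above them for Lgr5 and below them for Lgr4 and Lgr6. The groups did not overlap for 41.8% of all tested genes. Without WT replicate 1 the difference of Lgr4 was -0.07. Rnf43 had 259 and 281 in RKO and 275 and 278 in WT, which overlapped (difference -0.04), and Znrf3 stood at -0.06. The ligands Rspo3 (0.07) and Rspo1 (0.05) did not pass. Rspo2 was below the filter with 129 and 125 in RKO and 103 and 118 in WT.

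Of the intracellular components 10 of 11 were on the array, all 10 were tested and Nkd1 fell. Nkd1 binds Dishevelled and is itself induced by β-catenin in many tissues. Its intensities were 652 and 656 in RKO, against 796 and 812 in WT. The replicates of each group were close, at log2 gaps of 0.0085 between the RKO arrays and 0.03 between the WT arrays, and the groups were far apart by comparison. The fall was 1.23-fold (log2 difference -0.30, SE 0.0549, 95% interval -0.42 to -0.18, adjusted p = 0.0215). Its size stayed between -0.31 and -0.28 under 12 other settings, but the call held under 6 of them. It was lost with no intensity filter (adjusted p = 0.184), with quantile normalization (0.0506) and without any 1 of the 4 arrays (0.0610 to 0.157), where a group is left with 1 array.

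Axin2, the scaffold of the destruction complex that β-catenin induces as feedback, had 356 and 398 in RKO and 407 and 444 in WT. The RKO arrays were the lower ones, with a wide gap within each group (difference -0.17, SE 0.0700, adjusted p = 0.317). Without RKO replicate 1 the difference was -0.09. Nkd2, the paralogue of Nkd1, had 254 and 256 in RKO and 257 and 245 in WT, and its arrays overlapped (difference 0.02). The remaining 7 core components lay between -0.06 and 0.05. They were Ctnnb1 (-0.04), which encodes β-catenin, Apc (0.02) and Axin1 (0.05) of the destruction complex, Dvl1 (0.03), Dvl2 (-0.03) and Dvl3 (0.05), the Dishevelled proteins downstream of Frizzled, and Tcf7l1 (-0.06), a mostly repressive Tcf factor. The intensity of Ctnnb1 was 4663 and 4753 in RKO and 4894 and 4757 in WT, and its 95% interval ran from -0.16 to 0.09.

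**Figure D3:**
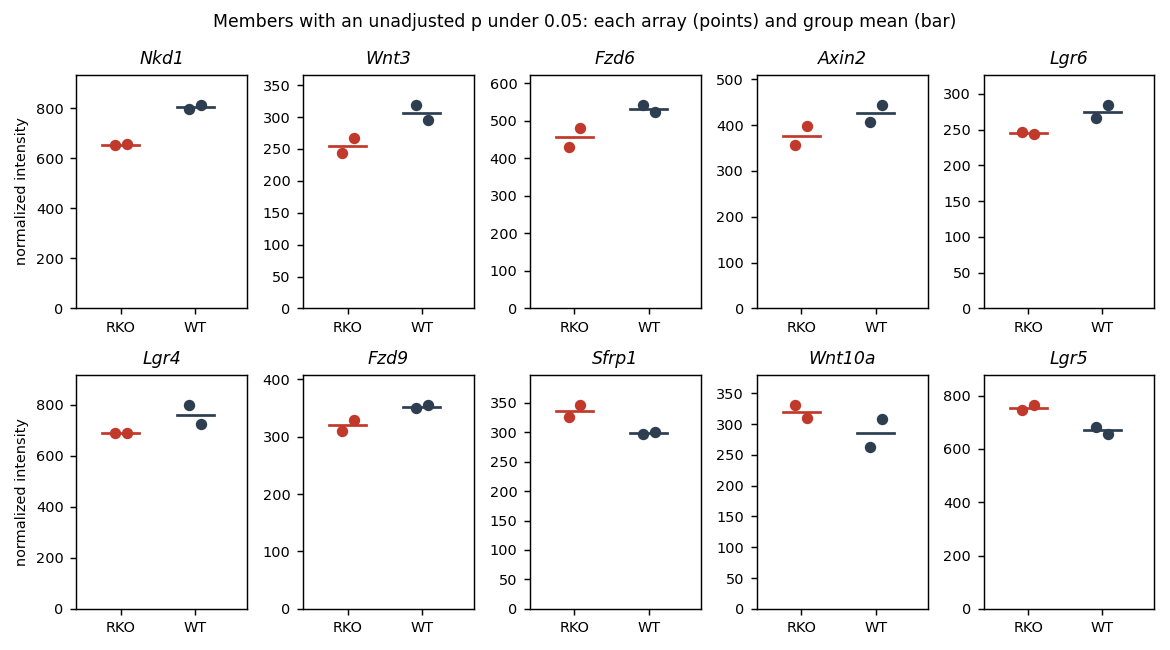
Normalized intensity in each RKO and WT array (points) and the group mean (bar) for the 10 Wnt genes with an unadjusted p under 0.05, in order of their difference. Nkd1, with 652 and 656 in RKO against 796 and 812 in WT, shows the widest gap between groups relative to the gaps within them.

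Beyond the members, 83 of 84 other listed genes of the pathway were on the array and 74 were tested. Id2, an inhibitor of basic helix-loop-helix factors that is a target of several pathways including BMP and Wnt, rose, 0 fell and 73 did not pass. Over all tested genes 0.640% were called higher and 0.964% lower. An unadjusted p under 0.05 in limma was reached by 12 of the 74, beside 12.8% of all tested genes. The intensities of Id2 were 4934 and 5009.7 in RKO and 4217 and 3768 in WT (difference 0.32, SE 0.0650, adjusted p = 0.0365). The call of Id2 was lost with no filter (adjusted p = 0.264), without WT replicate 2 (0.127), without RKO replicate 1 (0.228) and without RKO replicate 2 (0.151). The median of these 74 genes was -0.01, with 35 above 0 and 39 below. The next lowest p-values belonged to genes that did not pass. Sostdc1, a secreted antagonist of Wnt and BMP signals, had 265 and 279.6 in RKO and 223 and 232 in WT (difference 0.26, adjusted p = 0.0592). Lef1, a nuclear partner of β-catenin, had 558 and 592 in RKO and 656 and 701 in WT (-0.24, adjusted p = 0.0931). Apcdd1, a membrane inhibitor of the pathway, had 667 and 696 in RKO and 786 and 786 in WT (-0.21, adjusted p = 0.118). Each of these 3 genes had non-overlapping groups, as had 41.8% of all tested genes. Vangl1 of the planar polarity branch had 348 and 366 in RKO and 405 and 420.4 in WT (-0.21, adjusted p = 0.124). Tnfrsf19, a receptor of the TNF family induced by β-catenin, had 567 and 594 in RKO and 682 and 654 in WT (-0.20, adjusted p = 0.137).

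The common transcriptional targets of the pathway listed outside the members lay on both sides of 0. That list leaves out Nkd1 (-0.30) and Axin2 (-0.17), described above as induced by β-catenin. Both are counted among the members, where Nkd1 fell and Axin2 did not pass. Of the 8 genes on the list 7 were tested, of which Id2 rose, 0 fell and 6 did not pass. Over all tested genes 0.640% were called higher and 0.964% lower. Among the 7, 4 lay above 0 and 3 below, with a median of 0.02. Over all tested genes 7715 of 13587 lay below 0. Above 0 beside Id2 were the cell cycle and growth genes Mycn (0.11), Myc (0.07) and Ccnd2 (0.02). Below 0 were Tnfrsf19, the adhesion receptor Cd44 (-0.16) and the cyclin gene Ccnd1 (-0.11), and the transcription factor gene Sp5 was below the filter. The groups did not overlap for 5 of the 7, 2 higher and 3 lower in RKO. Over all tested genes 41.8% did not overlap, 17.2% higher and 24.6% lower.

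Markers of neighbouring tissue and of other cell types differed between the groups in some lists and not in others. Over all tested genes 0.964% were called lower and 0.640% higher, and 12.8% had an unadjusted p under 0.05 in limma. Of 13 tested leptomeningeal markers 8 fell and 0 rose, and the summed intensity of all 14 was 5057 and 5062 in RKO and 6325 and 6471 in WT. The falls included Ogn and Islr, while the collagen genes Col1a1 (0.13), Col1a2 (0.07) and Col3a1 (0.08) did not pass. Of 10 thalamus markers, which include Lef1 and Tcf7l2, 3 fell and 0 rose. The other 8 had a summed intensity of 16911 and 17295 in RKO and 19887 and 20153 in WT. Both lateral hypothalamic markers fell, with sums of 607 and 530.3 in RKO and 998 and 1029.5 in WT. Of 9 midbrain dopamine neuron markers 4 rose and 0 fell (18240.3 and 18793 in RKO, 14846 and 15273 in WT). Pericyte markers, 0 of 5 called (2 at an unadjusted p under 0.05), summed to 3790.2 and 4053 in RKO and 4328 and 4465 in WT. Choroid plexus and ependyma markers, 0 of 10 called (1 at that p), summed to 9974 and 10001.5 in RKO and 9416 and 9127 in WT, and their list includes Sostdc1. Endothelial markers, 0 of 9 called (2 at that p), overlapped in their sums (9807 and 10191 in RKO, 9963 and 10059 in WT). The lowest marker value in any array was 67.0 (Hoxa2), under the filter intensity of 167, and markers with a mean below the filter were not tested. Of the astrocyte markers 2 of 7 fell and of the oligodendrocyte markers 1 of 5, with 0 called higher in each. Astrocyte markers summed to 16717.5 and 17100 in RKO and 17129 and 17227 in WT, so the groups nearly met. Of these 7 genes 5 lay below 0, among them Gfap (-0.51), and 2 above. The 2 were Gja1 (0.22, adjusted p = 0.0848 in limma) and Slc1a2 (0.05), each higher in both RKO arrays. Oligodendrocyte markers summed to 20504 and 20715 in RKO and 22239 and 21843 in WT. Of the precursor, microglia and hindbrain lists 0 of 7, 0 of 5 and 0 of 4 tested genes passed in limma, with 1, 0 and 3 at an unadjusted p under 0.05. The microglia and hindbrain sums were lower in both RKO arrays as well, while the precursor sums overlapped. Of the 4 tested hindbrain genes 2 lay above 0, En2 (0.25) and Hoxb3 (0.16), and 2 below, Cbln1 (-0.19) and Gbx2 (-0.07). Cbln1 was the brightest gene of that list, at 1099 and 1122 in RKO and 1277 and 1254 in WT, and weighed most in its sum. The part of these marker lists in the values of Nkd1, Wnt3, Fzd6, Lef1 and the other Wnt genes was not tested.

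**Figure D4:**
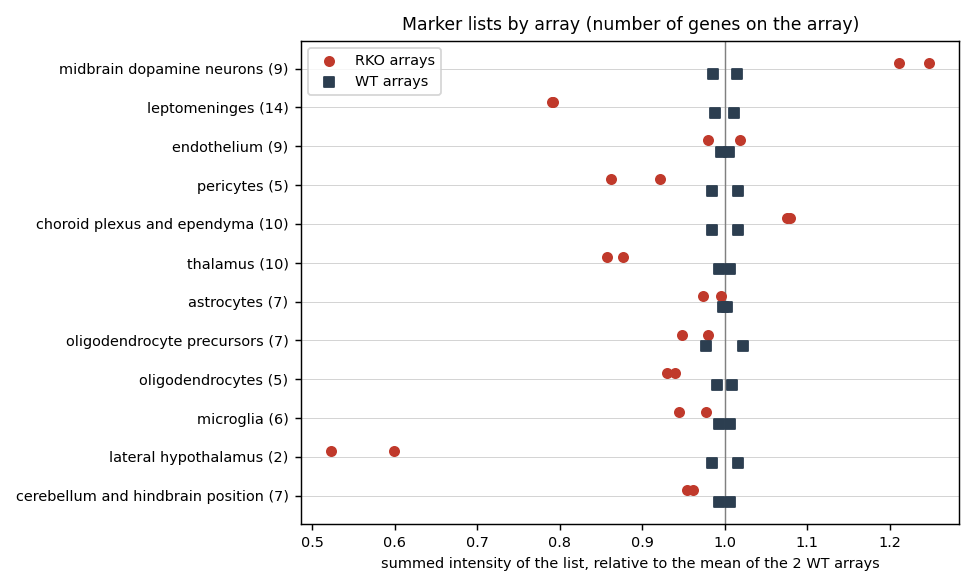
Summed intensity of each marker list in each array relative to the mean of the 2 WT arrays, with the number of genes in parentheses, RKO arrays as circles and WT arrays as squares. Lists lower in both RKO arrays were lateral hypothalamus, leptomeninges, thalamus, pericytes, oligodendrocytes, astrocytes, microglia and hindbrain. The dopamine neuron list and the choroid plexus and ependyma list were higher in both, while the endothelial and precursor lists overlapped. The astrocyte sums of the groups nearly met. Single genes of the astrocyte and hindbrain lists differed in direction, and a sum follows its brightest genes.

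**Figure D5:**
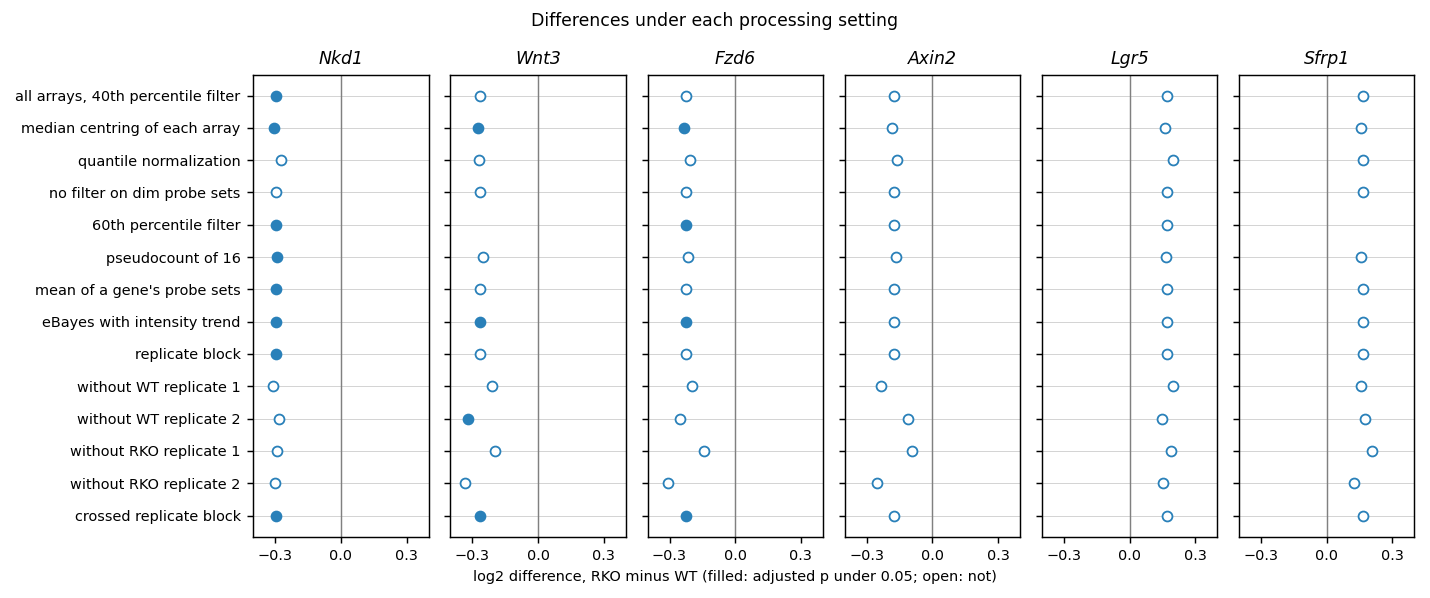
Log2 difference, RKO minus WT, of 6 Wnt genes under each setting, with filled points where the adjusted p was under 0.05 and no point where the gene was not tested. Nkd1 stayed between -0.31 and -0.28, while its call came and went with the filter, the normalization and the arrays kept.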

How the data were processed

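Ventral midbrain RNA from 2 RKO and 2 WT samples was hybridised to Affymetrix arrays as biotinylated cRNA made from 1 µg of total RNA, per the labels' protocols. The deposited table holds the authors' normalized intensities of 35556 probe sets, a linear value for each array. Per the submitters' processing notes the tools were GCOS and RMA (no version or setting is named). RMA as usually run makes the distributions of arrays alike, which would remove a shift common to most genes. In the deposited values the median of the tested genes was 540 in RKO replicate 1 and 559 in each other array. The median of all probe sets was 240 in RKO replicate 1 and 236 to 237 in the others. The scale was read from the values, and each column holds 1 array, so direction needed no choice.

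Intensities were taken to log2 with no pseudocount. Probe sets with 1 gene symbol (21789) gave 19938 genes, while 1621 with several symbols and 12146 unnamed here were left out of the test. Each gene took its probe set of highest mean, and 6351 genes below the 40th percentile (log2 7.38) were left out, leaving 13587. The contrast of RKO over WT was fitted in R 4.3.3 with limma 3.58.1 (lmFit, then eBayes), with no covariate, 2 residual and 8.73 prior degrees of freedom, and SE and 95% intervals are moderated. On simulated arrays of 13587 genes built from these, limma recovered 94 of 100 genes changed by 1 and 69 of 100 changed by 0.5 on the log2 scale. Spreads were shuffled between genes there. Differences as small as those of the Wnt members (-0.30 to 0.17) were not simulated, so their recovery is unknown. The members and lists were chosen with earlier results of these data known. Per-array values are given for members with an unadjusted p under 0.05 and, in each role group, for the 2 members of largest and the 1 of smallest absolute difference; other pathway genes are named if called or among the 6 of lowest p. Further members and markers were named after their values were seen. Alternatives covered centring, quantile normalization, the filter, a pseudocount of 16, averaging probe sets, an intensity trend, a replicate block and each array left out. Same-numbered arrays did not deviate together (r = -0.11 across genes, 2 pairs), so replicate numbers were not taken as pairs. At most 5 values were identical between any arrays.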

Additional observations from a re-analysis of the deposited data

How the results depend on the processing

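Over all genes 218 were called, against 455 with median centring, 31 with no filter, 296 with the 60th percentile filter, 499 with an intensity trend and 77 to 287 with an array left out (109 without RKO replicate 2 and 77 without RKO replicate 1). Of the Wnt members 1 was called, against 3 with median centring (Nkd1, Fzd6 and Wnt3), 3 with an intensity trend (the same genes), 2 with the 60th percentile filter (Nkd1 and Fzd6), 0 with quantile normalization or no filter (8 and 7 at an unadjusted p under 0.05 in limma) and 0 to 1 with an array left out. Of the other pathway genes 1 was called, against 3 with median centring, 5 with the 60th percentile filter, 5 with an intensity trend, 0 with no filter (9 at an unadjusted p under 0.05 in limma) and 0 to 1 with an array left out. The cause was not tested, beyond the fewer arrays and other gene sets of these settings. With replicate numbers as a block, the members called stayed at 1, while 259 genes in all and 2 other pathway genes (Id2 and Sostdc1) were called. A crossed pairing, added after seeing the data, called 696 genes, 3 members and 6 other pathway genes. The members' median was -0.01, against 0.0099 with no filter, -0.045 with the 60th percentile filter and -0.014 to 0.021 with an array left out. Nr1d1 stood at -1.32 to -1.22 with an array left out.

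Of 25 named genes 18 kept their direction under the planned settings. Near 0, Lrp5 turned to -0.0047 with median centring. With an array left out Lrp5 ran from -0.027 to 0.034, Fzd10 from -0.042 to 0.062, Frzb from -0.23 to 0.017, Sfrp5 from -0.020 to 0.044, Nkd2 from -0.016 to 0.058, Wnt7b from -0.013 to 0.043 and Rnf43 from -0.097 to 0.022. The 5 members below the filter have signals too dim for a test.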
